A study of Rattus norvegicus with 45 samples.

Results

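Respiratory complex I (NADH:ubiquinone oxidoreductase) was examined through the genes whose symbols begin with Nduf, in the gastrocnemius and soleus muscles of female Sprague Dawley rats given cerivastatin, a statin. Of the 31042 probe sets on the array that are not controls, 46 carried a single platform symbol of this form, and they stood for 42 of 14217 named genes. These comprised 6 core subunits encoded in the nucleus, 28 accessory subunits, 6 assembly factors (Ndufaf1, Ndufaf3, Ndufaf4, Ndufaf5, Ndufaf7 and Ndufaf8), and Ndufa4 and Ndufa4l2, which carry the family name but are not complex I subunits. A further 2 probe sets shared a Nduf symbol with another gene and were left out. All 46 probe sets passed the filter on low signal.

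The 45 arrays fell into 12 groups, each of 3 or 4 animals. Exercised and unexercised rats received cerivastatin at 0.1, 0.5 or 1.0 mg/kg/day, or methylcellulose vehicle alone, over 14 days, and running animals spent 20 min a day at 20 m/min on a treadmill on 5 days of each week. All 8 of these groups were sampled in gastrocnemius (30 arrays), a predominantly fast muscle, whereas soleus, a predominantly slow one, was sampled at 1.0 mg/kg/day and with vehicle only (15 arrays). The groups of 3 were gastrocnemius at 0.5 mg/kg/day with exercise, gastrocnemius at 1.0 mg/kg/day without exercise and soleus at 1.0 mg/kg/day without exercise. The study asked how the drug acts on muscle RNA, what running adds, and why fibre types differ in sensitivity. Signals are MAS5 intensities, which are comparable between arrays for the same probe set but not between probe sets.

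Complex I is the entry point of electrons from NADH into the mitochondrial respiratory chain. Its matrix arm holds the flavin and iron-sulphur clusters that pass electrons to ubiquinone, and its membrane arm pumps protons. The core subunits carry out catalysis, and those of the membrane arm are encoded by mitochondrial DNA and are not among the genes described here. Accessory subunits surround and stabilise the core, and assembly factors act while the complex is being built and then leave it. Skeletal muscle fibres depend on the complex for oxidative ATP production, and slow fibres generally contain more mitochondria than fast glycolytic fibres.

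The stretches of 120 bases upstream of the annotated start are shown for 6 genes, to set the promoters of the genes with the largest changes beside those of genes that did not pass the test. Ndufs3 and Ndufs7 had the largest decreases among core subunits and Ndufa5 and Ndufv3 the largest among accessory subunits, in exercised gastrocnemius at the high dose, whereas Ndufaf1 and Ndufaf7 were the assembly factors that did not pass the test there. The sequences are from RefSeq, build GRCr8, and are written 5′ to 3′ on the gene's strand. They lie at chr3:97339655-97339774 (minus strand) for Ndufs3, chr7:10110499-10110618 (minus strand) for Ndufs7, chr4:53971236-53971355 (minus strand) for Ndufa5, chr20:9613666-9613785 (plus strand) for Ndufv3, chr3:127104021-127104140 (minus strand) for Ndufaf1 and chr6:21871966-21872085 (minus strand) for Ndufaf7. Capitals mark matches to any of 4 motifs on either strand, namely the consensus of NRF1, CCGGAAG for GABP, AAGGTCA for the oestrogen-related receptors and AAGATGGC for YY1, which are factors known to act on nuclear genes of the respiratory chain.
Ndufs3: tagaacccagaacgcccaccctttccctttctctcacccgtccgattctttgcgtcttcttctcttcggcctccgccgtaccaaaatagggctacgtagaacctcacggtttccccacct
Ndufs7: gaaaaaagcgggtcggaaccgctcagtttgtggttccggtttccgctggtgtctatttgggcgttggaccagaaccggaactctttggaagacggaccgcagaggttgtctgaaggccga
Ndufa5: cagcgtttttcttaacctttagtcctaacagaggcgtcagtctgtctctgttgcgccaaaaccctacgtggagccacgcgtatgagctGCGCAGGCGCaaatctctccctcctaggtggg
Ndufv3: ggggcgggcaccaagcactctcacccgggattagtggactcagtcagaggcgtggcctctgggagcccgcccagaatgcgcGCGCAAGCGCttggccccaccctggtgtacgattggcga
Ndufaf1: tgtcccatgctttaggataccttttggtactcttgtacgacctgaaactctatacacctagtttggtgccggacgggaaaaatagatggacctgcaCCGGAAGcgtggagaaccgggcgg
Ndufaf7: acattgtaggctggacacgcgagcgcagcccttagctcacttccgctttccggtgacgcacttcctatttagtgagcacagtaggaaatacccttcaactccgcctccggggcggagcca

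In these stretches the capitals mark an NRF1 match in Ndufa5 and Ndufv3 and a GABP match in Ndufaf1, and none of the 4 motifs is written in the stretches of Ndufs3, Ndufs7 and Ndufaf7. Over the full window from 250 bases before to 50 bases after the start, 40 of the 42 genes had a sequence. The NRF1 motif occurred in 20.0% of these 40, against 4.25% of all 33469 promoters of the same length and 5.67% of those of protein-coding genes. The YY1 motif occurred in 10 of the 40, against 3.17% of all promoters and 3.67% of protein-coding ones. These YY1 matches began at base -1 to base 27 relative to the start, so the stretches shown could not hold them. Ndufs7 is among the 10, with its match beginning at base 5. Ndufaf1 had a further GABP match, beginning at base 19 and so outside its stretch. GABP was found in 22.5% against 8.75% and 10.7%, and the oestrogen-related receptor motif in 7.5% against 4.61% and 3.78%. GGGCGG, the Sp1 motif, was found in 47.5% against 33.1% and 41.8%. These are matches of letters and not binding sites, and no test was made of them.

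In exercised gastrocnemius, 1.0 mg/kg/day of cerivastatin lowered nearly the whole family. Of the 42 genes, 39 fell against exercised vehicle rats and 0 rose (limma, Benjamini-Hochberg adjusted p below 0.05), while 20.4% of the 21729 probe sets tested fell and 23.0% rose (43.4% in either direction). All 34 measured subunits were among the 39, and the median log2 fold change over the 42 genes was -1.35, against 0.07 over the 11684 genes tested. All 4 treated arrays lay below all 4 vehicle arrays for 38 of the 42 genes, compared with 20.1% of all probe sets. Counted by probe set, 40 of the 46 fell. The signal comes from whole muscle pieces, so fewer muscle cells and less RNA per cell cannot be told apart.

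**Figure D1:**
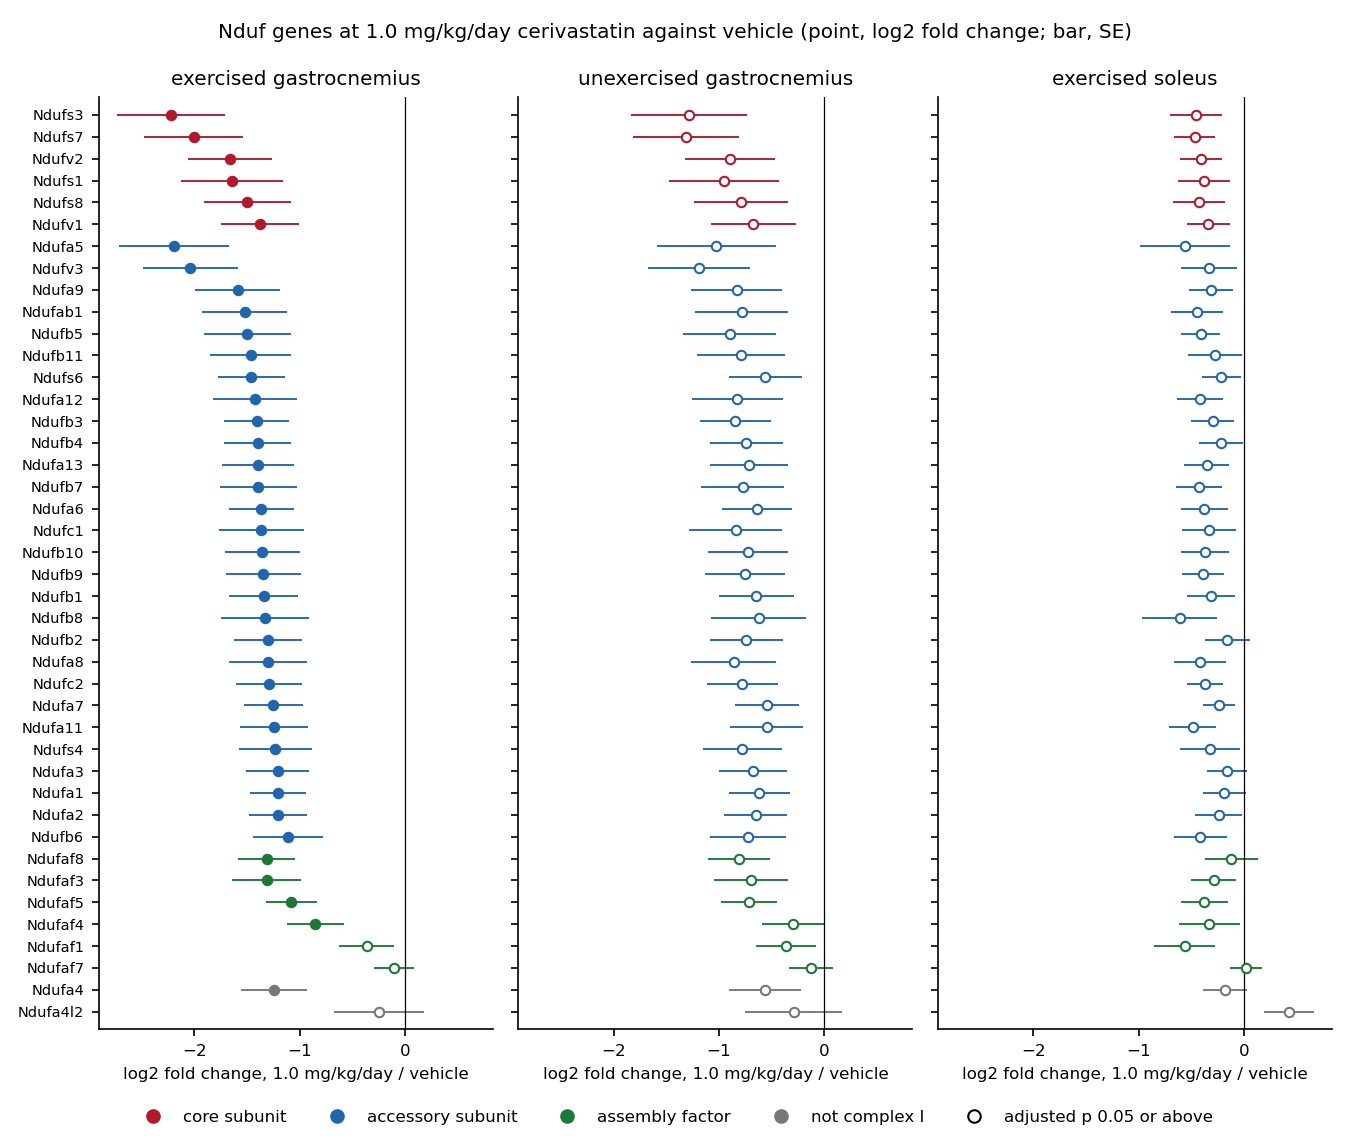
Log2 fold change (x axis) of each Nduf gene (rows) at 1.0 mg/kg/day over vehicle in exercised gastrocnemius, unexercised gastrocnemius and exercised soleus, with its SE, where filled points have an adjusted p below 0.05. Filled points are found in exercised gastrocnemius only, for 39 of 42 genes, while in unexercised gastrocnemius all 42 lie below 0 with 0 past the threshold.

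The 6 core subunits fell with a median of -1.65. Ndufs3, a subunit of the matrix arm near the ubiquinone site, had signals of 6993.2, 1925.5, 6734.9 and 1899.5 in the 4 treated rats, against 16344.9, 21597.1, 15431.8 and 15160.3 in the vehicle rats. The groups were well apart, and replicates 2 and 4 of the treated group were far lower than replicates 1 and 3. Its log2 fold change was -2.22 ± 0.51 (SE; limma, adjusted p = 0.00109), the largest of the family, and the mean signal was 0.256 times that of vehicle rats. Ndufs7, which carries the iron-sulphur cluster that hands electrons to ubiquinone, read 14592.6, 4015.3, 12124.4 and 3674.5 in treated rats, against 27369.9, 36306.2, 25657.7 and 26655.0 in vehicle rats, a change of -2.0 ± 0.47 (limma, adjusted p = 0.00118). The same order of the treated arrays was seen again.

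Ndufv1, which binds NADH and the flavin, read 10135.8, 4078.7, 9426.1 and 3815.7 in treated rats, against 14956.1, 21387.2, 14570.2 and 14459.7 in vehicle rats. Its change, -1.37 ± 0.37 (limma, adjusted p = 0.00400), was the smallest of the core. Its partner Ndufv2, an iron-sulphur protein, read 19695.3, 6667.5, 18472.3 and 6144.9 in treated rats, against 31657.2, 41204.5, 35260.6 and 32568.2 in vehicle rats, a change of -1.66 ± 0.40 (limma, adjusted p = 0.00147). Neither gene's groups overlapped. Ndufs1, which holds iron-sulphur clusters in the matrix arm, read 9718.4, 2683.5, 8026.1 and 2310.1 in treated rats, against 15221.9, 20049.5, 12451.6 and 12090.1 in vehicle rats, a change of -1.64 ± 0.48 (limma, adjusted p = 0.00767). Ndufs8, another iron-sulphur protein of the route to ubiquinone, read 5876.6, 2152.1, 4751.8 and 2018.8 in treated rats, against 9290.7, 12784.0, 8262.3 and 7923.8 in vehicle rats, a change of -1.50 ± 0.41 (limma, adjusted p = 0.00461). The treated arrays of both genes lay below every vehicle array, in the same order as for the other core subunits.

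The 28 accessory subunits fell with a median of -1.36, and their changes ran between -2.19 for Ndufa5 and -1.11 for Ndufb6. Ndufa5, of the matrix arm, read 4690.6, 1375.1, 4557.5 and 1104.8 in treated rats, against 8592.3, 20394.6, 9824.1 and 8437.6 in vehicle rats, with an SE of 0.52 (limma, adjusted p = 0.00143). The vehicle array of replicate 2 was far above the others for this gene. Ndufv3, an accessory protein beside the NADH-binding subunits, read 5745.2, 1515.0, 5313.5 and 1735.1 in treated rats, against 10840.1, 16324.9, 11562.7 and 11271.5 in vehicle rats, a change of -2.04 ± 0.45 (limma, adjusted p = 7.27e-04). The next largest were Ndufa9, which sits where the arms meet (-1.59), Ndufab1, the mitochondrial acyl carrier protein found in both arms (-1.52), Ndufb5 and Ndufb11 of the membrane arm (-1.49 and -1.46), Ndufs6, a zinc-binding subunit of the matrix arm (-1.46), and Ndufa12 of the matrix arm (-1.42). Of all 34 subunits, Ndufs4 was the exception to the separation of the groups, since its treated and vehicle arrays overlapped although it fell by 1.23 on the log2 scale. By position, the 15 subunits of the matrix arm had a median of -1.50 and the 18 of the membrane arm a median of -1.34, with no test of that difference.

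Assembly factors were divided in whether they passed the test. Ndufaf8 read 1308.8, 733.3, 1261.7 and 645.6 in treated rats, against 2556.4, 2262.1, 2141.4 and 2489.0 in vehicle rats, a change of -1.31 ± 0.27 (limma, adjusted p = 3.89e-04). It is known in human cells to stabilise Ndufaf5, a hydroxylase that modifies Ndufs7, and Ndufaf5 fell by 1.08 on the log2 scale (SE 0.25; limma, adjusted p = 0.00101). Ndufaf3 read 1923.2, 939.5, 1963.1 and 860.8 in treated rats, against 3519.8, 3551.1, 3138.4 and 3041.3 in vehicle rats, a change of -1.31 ± 0.32 (limma, adjusted p = 0.00193). It acts together with Ndufaf4 on the ubiquinone module, and Ndufaf4 fell by 0.85 (SE 0.27; limma, adjusted p = 0.0134). Ndufaf1, which acts on the membrane arm, did not pass the test, with 244.3, 322.9, 253.3 and 213.5 in treated rats, against 472.4, 363.6, 230.2 and 306.8 in vehicle rats, and a log2 fold change of -0.36 ± 0.26 (limma, adjusted p = 0.279). Nor did Ndufaf7, a mitochondrial methyltransferase, with 503.1, 411.7, 585.8 and 541.9 in treated rats, against 569.6, 671.5, 547.1 and 422.9 in vehicle rats, a change of -0.10 ± 0.19 (limma, adjusted p = 0.692). For both the groups overlapped. Ndufaf1, Ndufa4l2 and Ndufaf7 had the lowest mean signals of the family over all arrays, at 329.0, 409.8 and 543.7. Ndufaf5, which passed, was next at 734.4. Whether low signal hid a decrease in the genes that did not pass was not tested.

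Of the genes that only share the name, Ndufa4, a subunit of cytochrome c oxidase, read 20299.1, 10140.0, 21958.0 and 10270.9 in treated rats, against 31360.3, 41257.2, 32465.7 and 34396.4 in vehicle rats, a change of -1.24 ± 0.31 (limma, adjusted p = 0.00237). Its paralogue Ndufa4l2, a hypoxia-responsive gene, had overlapping groups, with 327.0, 260.9, 357.5 and 310.4 in treated rats, against 375.9, 564.8, 248.9 and 358.1 in vehicle rats (log2 fold change -0.24 ± 0.43; limma, adjusted p = 0.677). Ndufa4 thus had a change within the range of the complex I subunits, and its paralogue, among the dimmest of the family, did not pass the test.

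The treated animals were unequal in a way that ran through the family. Expressed as the median difference of the 42 genes from vehicle on the log2 scale, the 4 exercised high-dose arrays were at -0.74, -1.89, -0.81 and -2.01, while the exercised vehicle arrays lay between -0.12 and 0.32. Replicates 2 and 4 were both below replicates 1 and 3 for 40 of the 42 genes. In these 2 arrays the core subunits were at -2.42 and -2.58, the accessory subunits at -1.92 and -2.03, and the assembly factors at -1.19 and -1.2. In replicates 1 and 3 the 3 classes lay closer together, the core at -0.75 and -0.95, accessory subunits at -0.74 and -0.82 and assembly factors at -0.72 and -0.67. The 42 genes together made up 0.578% to 1.39% of the summed signal of a treated array, against 1.89% to 2.52% in vehicle arrays.

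**Figure D2:**
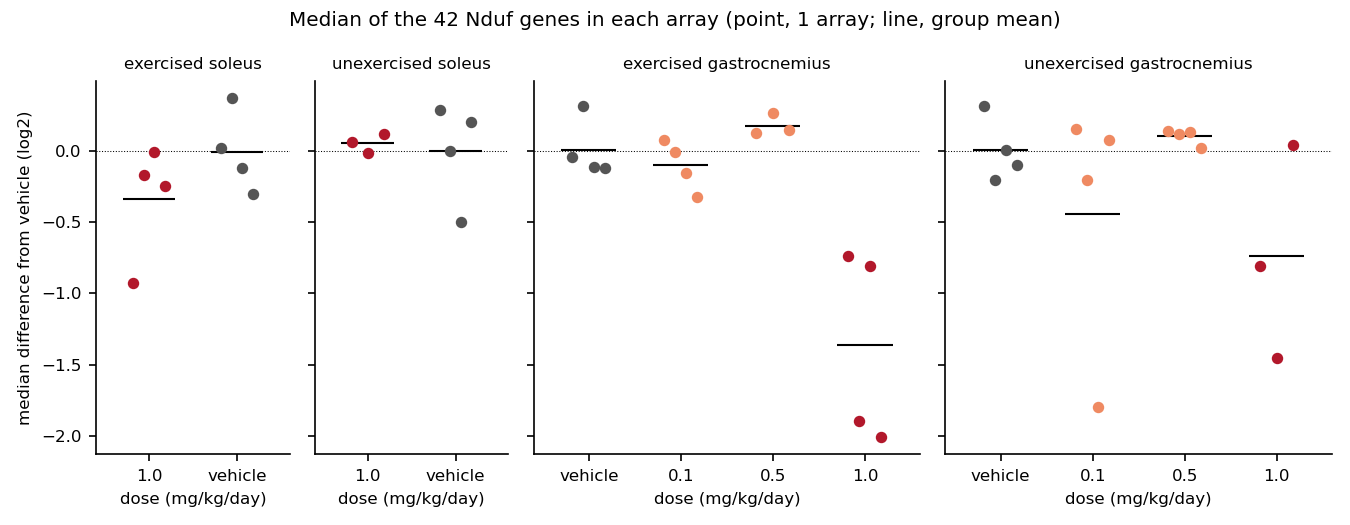
Median difference of the 42 Nduf genes from the mean of the vehicle group of the same muscle and exercise state (y axis, log2) in every array, by dose in mg/kg/day (x axis), with a line at each group mean. All 4 exercised gastrocnemius arrays at 1.0 mg/kg/day lie at -0.74 or below, while 1 of the 3 unexercised ones, at 0.04, lies among the vehicle arrays, and a single array at 0.1 mg/kg/day lies at -1.80.

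Markers of other cells moved with this result. All 13 measured macrophage markers rose in the same comparison, with a median of 4.60, and their summed signal was 78959 to 181451 in treated arrays, against 6617 to 8103 in vehicle arrays, with no marker at 0. Per array, the macrophage median was 3.54, 4.94, 4.00 and 5.07 above vehicle for replicates 1 to 4, and the arrays with the 2 largest values were those with the lowest Nduf signal. Of 6 fibroblast markers 4 rose, and 10 of 12 fast-fibre genes fell with a median of -1.67, while 0 of 8 slow-fibre genes were past the threshold. The summed slow-fibre signal varied widely within both groups, at 4692 to 189209 in treated arrays and 3653 to 379729 in vehicle arrays. The Gapdh 5′ to 3′ ratio, a sign of RNA integrity, was 0.733 to 0.806 in treated arrays, against 0.837 to 0.888 in vehicle arrays, whereas the actin ratio went the other way, at 0.437 to 0.578 in treated arrays and 0.350 to 0.469 in vehicle arrays. Of 7 endothelium markers 1, Tie1, rose (1.51), and 0 of 5 adipocyte and 0 of 3 erythroid markers passed the test. The part that these differences had in the decrease of the Nduf genes was not tested.

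**Figure D3:**
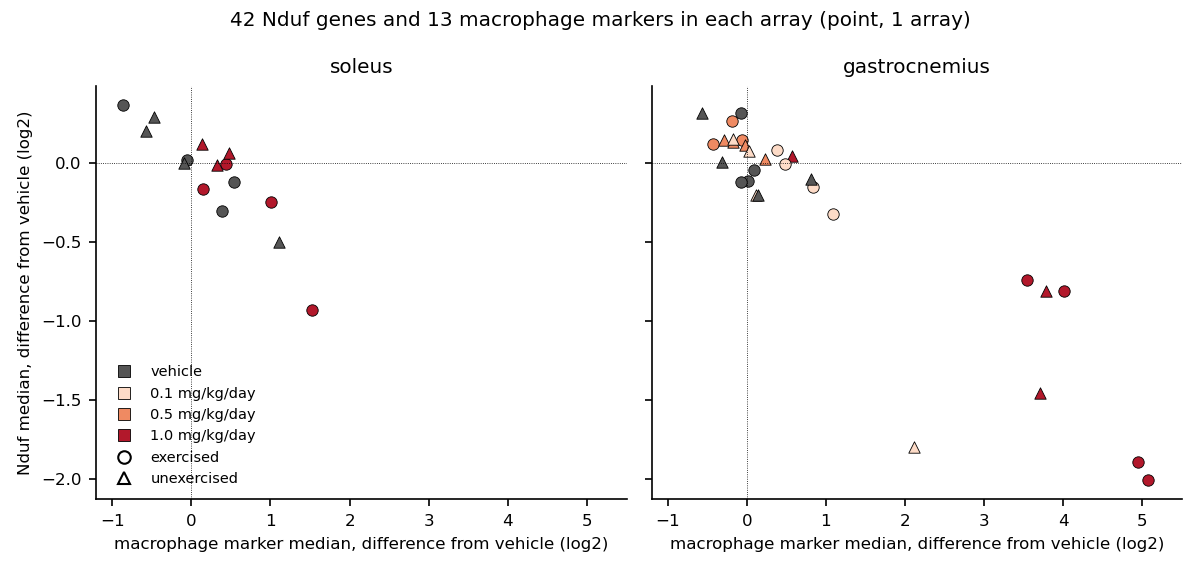
Median difference from vehicle (log2) of the 13 macrophage markers (x axis) and of the 42 Nduf genes (y axis) in each soleus and gastrocnemius array, coloured by dose and shaped by exercise. Exercised high-dose gastrocnemius arrays have macrophage values of 3.54 to 5.07 and Nduf values of -0.74 to -2.01, and the 0.1 mg/kg/day array with an Nduf value of -1.80 has a macrophage value of 2.11.

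Other genes that build or serve the respiratory chain were counted in the same comparison. Of 12 other complex I assembly genes 8 fell and 0 rose (median -0.67), led by Ecsit (-2.03) and Tmem70 (-1.86), which act on the membrane arm. Of 12 genes of iron-sulphur cluster synthesis 8 fell and 0 rose (median -0.78), with Isca1 (-1.86) and Bola3 (-1.28) in front. Of 20 genes of ubiquinone synthesis and of the other dehydrogenases that feed ubiquinone or use NADH, 14 fell and 2 rose (median -1.04). The falls included Coq10a (-3.05) and the glycerol phosphate dehydrogenase Gpd2 (-2.64), and the genes that rose were Coq10b (1.54) and Coq8b (0.81).

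Most genes of the other complexes fell as well. All 12 genes of complexes II and III fell (median -1.29), led by Cyc1 (-1.62) and Sdha (-1.50). In complex V 14 of 15 fell (median -1.30), with Atp5f1c (-1.63) and Atp5mk (-1.60) lowest, and Atp5if1, an inhibitor of the ATP synthase, rose (1.36). In complex IV 10 of 14 fell and 2 rose (median -1.01). The muscle-type isoforms Cox8b (-2.53) and Cox6a2 (-1.77) fell, and the widely expressed isoforms Cox6a1 (1.52) and Cox8a (0.84) rose. The 73 mitochondrial ribosomal protein genes had a smaller median, -0.61, with 41 falling, led by Mrps28 (-1.53) and Mrpl15 (-1.50), and 1, Mrps6 (0.94), rising. The Nduf median was below that of the mitochondrial ribosomal genes in all 4 treated arrays, by 0.35, 1.17, 0.42 and 1.16 on the log2 scale for replicates 1 to 4.

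Among 21 regulators of mitochondrial gene expression, 8 fell and 3 rose. Perm1 (-3.52) and Ppargc1a (-2.02), which encode activators of mitochondrial gene transcription in muscle, fell most, and Pprc1 (1.11), a relative of Ppargc1a, and Gabpb1 (0.55), a GABP subunit, had the largest rises. Esrra, an oestrogen-related receptor, fell by 1.25 on the log2 scale. Nrf1, Gabpa and Yy1 did not pass the test, with 0.43 ± 0.29 for Nrf1, 0.11 ± 0.17 for Gabpa and 0.27 ± 0.13 for Yy1 (limma, adjusted p = 0.232, 0.646 and 0.0917).

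**Figure D4:**
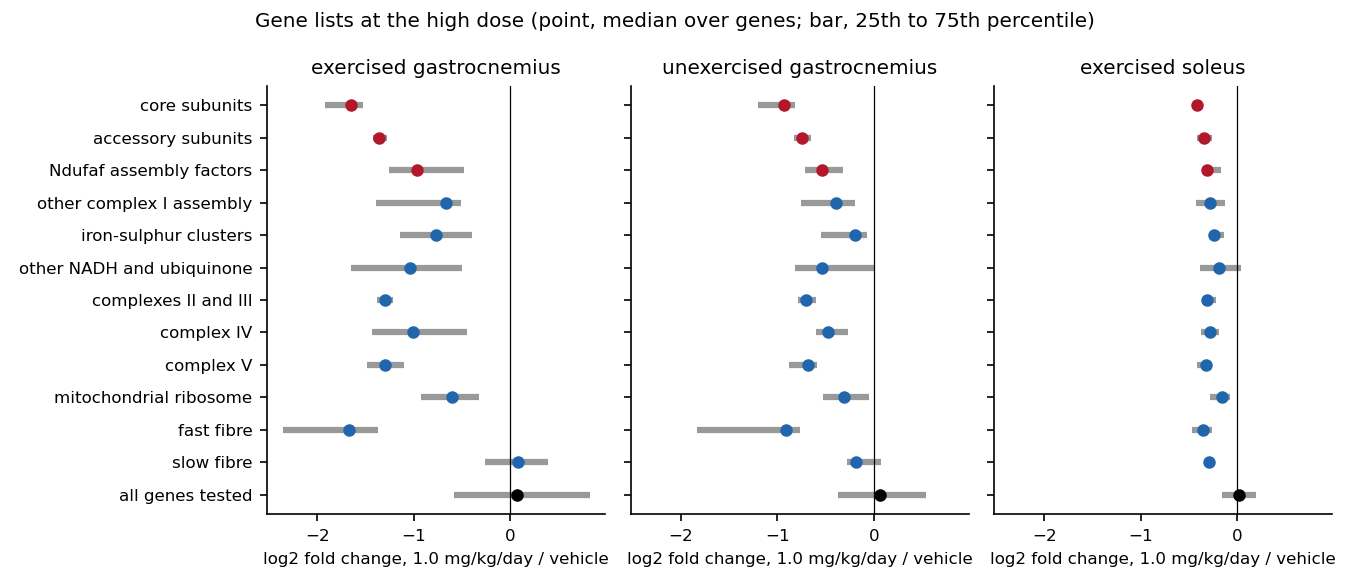
Median log2 fold change (points) with the interquartile range over genes (bars) of the Nduf classes and of the lists set beside them, at 1.0 mg/kg/day over vehicle in 3 comparisons. In exercised gastrocnemius the core subunits are at -1.65, accessory subunits at -1.36, complexes II and III at -1.29, complex V at -1.30 and mitochondrial ribosomal genes at -0.61, while all genes tested have a median of 0.07.

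Without exercise the same dose gave no Nduf gene past the threshold in gastrocnemius, where 9.5% of all probe sets passed. All 42 log2 fold changes were negative, with a median of -0.74 against 0.07 over all genes. An unadjusted p below 0.05 was found for 15 of the 42 genes, against 6057 of the 21729 probe sets (limma). The 3 treated arrays were at -0.81, -1.45 and 0.04 as the median difference from vehicle. Replicates 1 and 2 were each below all 4 vehicle arrays for 40 of the 42 genes, whereas replicate 3 was within the vehicle range for 38. For Ndufs7 the treated signals were 11621.8, 4299.6 and 27011.8, against 35026.2, 23652.0, 26560.8 and 25906.5 in vehicle rats, and its change, -1.31 ± 0.50, had an adjusted p of 0.0902 (limma). Ndufs3 read 5331.5, 2749.0 and 15246.8 in treated rats, against 18341.3, 13189.1, 15156.0 and 13101.3 in vehicle rats, with a change of -1.28 ± 0.55 (limma, adjusted p = 0.130).

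The other core subunits lay between -0.68 for Ndufv1 and -0.95 for Ndufs1, with adjusted p-values of 0.171 to 0.278 (limma), and Ndufa4 and Ndufa4l2 were at -0.56 and -0.29. The smallest adjusted p, 0.0720, belonged to Ndufaf8 (-0.81 ± 0.29), and Ndufaf8, Ndufaf5 and Ndufa1 were the 3 genes whose treated arrays all lay below the vehicle arrays, compared with 7.47% of all probe sets. Leaving out replicate 3 gave 26 genes past the threshold, and leaving out any other array of these groups gave 0. When an array of another group was left out, namely the low one at 0.1 mg/kg/day described below, 9 genes passed. How many of all probe sets passed with any of these arrays left out was not counted. The macrophage markers again differed, with all 13 higher (median 2.60). Per array they were 3.78, 3.71 and 0.57 above vehicle, so that replicate 3 was also closest to vehicle by this measure. Its adipocyte markers were 3.35 above vehicle, against -1.29 and -0.06 in replicates 1 and 2 and -1.07 to 2.60 in the vehicle arrays. Their part in the Nduf values was not tested.

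The difference between the responses of exercised and unexercised animals to the high dose was itself fitted. The median interaction was -0.62 over the 42 genes, negative for 39, and none passed the threshold (limma, 0.00% of all 21729 probe sets called). An unadjusted p below 0.05 was found for 0 of the 42 genes, against 1375 of the 21729 probe sets. For Ndufs3 the interaction was -0.94, with a 95% confidence interval of -2.49 to 0.61. Running did not give a detectable change in vehicle rats either. In gastrocnemius the 42 genes had a median of 0.06 and in soleus of 0.19, exercised over unexercised. In both, 0 were past the threshold (limma, 0.00% of all probe sets called). An unadjusted p below 0.05 was found for 0 of the 42 in both, against 724 and 645 of the 21729 probe sets.

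The lower doses did not lower the family detectably. At 0.5 mg/kg/day the median log2 fold change was 0.16 in exercised and 0.09 in unexercised gastrocnemius, and at 0.1 mg/kg/day it was -0.10 and -0.45. No Nduf gene passed the threshold in any of these 4 comparisons (limma, 0.00% of all probe sets called). An unadjusted p below 0.05 was found for 0 of the 42, against 593 to 957 of the 21729 probe sets. At 0.5 mg/kg/day with exercise 41 of the 42 estimates were positive, the largest being 0.40 for Ndufs1 with a 95% confidence interval of -0.68 to 1.47. The assembly factor Ndufaf3 was the 1 gene whose 0.5 mg/kg/day arrays all lay above the vehicle arrays, which was seen for 2.20% of all probe sets. Its signals were 3865.3, 4019.6 and 3682.3 at 0.5 mg/kg/day, against 3519.8, 3551.1, 3138.4 and 3041.3 with vehicle.

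A single array set the value for 0.1 mg/kg/day without exercise. Replicate 3 of that group was at -1.80 as the family median, against -0.20 to 0.15 for the other 3 arrays, and it had the lowest signal of its group for 41 of the 42 genes. Ndufs3, for example, read 17284.4, 14371.5, 2136.7 and 17741.9 in the 4 rats of this group. The same array had the lowest Gapdh 5′ to 3′ ratio (0.475) and the lowest actin ratio (0.116) of all 45, and its macrophage markers were 2.11 above vehicle. Its adipocyte markers stood further off, at a median of 5.87 above vehicle against -0.76 to 0.53 in the other 3 arrays. Its endothelium markers were 2.20 above, and its fast-fibre genes were at -1.45. In the vehicle arrays the adipocyte markers ran from -1.07 to 2.60. At 0.1 mg/kg/day with exercise they reached 4.01 above vehicle, and no family median there was below -0.33. The part of these differences was not tested. Without replicate 3, the median log2 fold change of the unexercised group was -0.01.

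Set against 0.5 mg/kg/day, the high dose in exercised gastrocnemius again lowered 39 of the 42 genes (median -1.55), where 18.2% of all probe sets fell and 39.7% passed in either direction. All high-dose arrays lay below all 0.5 mg/kg/day arrays for 40 of them, compared with 23.1% of all probe sets. This comparison uses the same high-dose arrays as the one with vehicle. Ndufa5 (-2.40 ± 0.56) and Ndufs3 (-2.37 ± 0.55) changed most, with adjusted p-values of 0.00151 and 0.00146 (limma). Ndufaf1, Ndufaf7 and Ndufa4l2, the dimmest of the family, were again the genes not past the threshold. Without exercise 0 of the 42 passed, with a median of -0.86 (limma, 9.33% of all probe sets called). An unadjusted p below 0.05 was found for 31 of them, against 6126 of the 21729 probe sets. The count past the threshold was 29 without replicate 3 of the high-dose group, and 25 without the low array at 0.1 mg/kg/day. How many of all probe sets passed with these arrays left out was not counted.

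In exercised soleus the high dose gave no Nduf gene past the threshold, as it gave none among all probe sets (0.00%). The median log2 fold change was -0.35, and 40 of 42 estimates were negative. An unadjusted p below 0.05 was found for 4 of the 42 genes, against 1156 of the 21729 probe sets (limma). The 4 treated arrays were at -0.93, -0.17, -0.01 and -0.25, against -0.30 to 0.37 for vehicle arrays, so that replicate 1 stood below the rest. That array was below all 4 vehicle arrays for 40 of the 42 genes, and replicates 2, 3 and 4 for 7, 1 and 17. It also had a low Gapdh 5′ to 3′ ratio, 0.624, and macrophage markers 1.53 above vehicle. Its adipocyte markers were 2.83 above, against -1.79 to -1.08 in the other 3 and -2.18 to 1.56 in the vehicle arrays. The part of these differences was not tested.

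The core subunits in this comparison lay between -0.47 for Ndufs7 and -0.34 for Ndufv1. Ndufs7 read 13178.8, 19747.9, 22238.5 and 19842.9 in treated soleus, against 24701.3, 32466.3, 23736.5 and 22081.2 in vehicle soleus, with a change of -0.47 ± 0.20 (limma, adjusted p = 0.908). Ndufs3 read 6088.6, 10802.6, 12921.8 and 10001.0 in treated soleus, against 14125.5, 17058.3, 11840.1 and 10498.9 in vehicle soleus, with a change of -0.45 (95% confidence interval -0.98 to 0.07). The groups overlapped for both genes. Ndufa4 and Ndufa4l2 were at -0.18 and 0.43, neither past the threshold. In unexercised soleus the median was 0.04, with 0 genes past the threshold (limma, 0.00% of all probe sets called). An unadjusted p below 0.05 was found for 0 of the genes there, against 593 of the 21729 probe sets.

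The response of exercised animals to the high dose was compared between the muscles in 1 fit over all 45 arrays, as the soleus change minus the gastrocnemius change. The median difference over the 42 genes was 1.03, against -0.08 over all genes, and 11 of the 42 passed the threshold, all positive, where 11.6% of all probe sets passed in that direction and 25.3% in either. The 11 were the core subunits Ndufs3 (1.77 ± 0.64; limma, adjusted p = 0.0391) and Ndufs7 (1.54 ± 0.57; limma, adjusted p = 0.0448), the accessory subunits Ndufv3, Ndufs6, Ndufb4, Ndufb2, Ndufb3, Ndufa3, Ndufa1 and Ndufa7 (1.01 to 1.70), and the assembly factor Ndufaf8 (1.19 ± 0.38; limma, adjusted p = 0.0202). For these 11 genes the decrease was smaller in soleus than in gastrocnemius. Among the same contrasts all 13 macrophage markers were negative and past the threshold (median -3.60), and 3 of 12 fast-fibre genes were positive and past it.

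The count of 11 moved with single arrays. It was 0 without gastrocnemius high-dose replicate 2 or replicate 4, and 27 and 24 without its replicates 1 and 3. It was 20 without soleus high-dose replicate 1, 1 without its replicate 2 or its replicate 3, and 3 without its replicate 4. Leaving out soleus vehicle replicates 1, 3 and 4 gave 7, 6 and 2, and leaving out gastrocnemius vehicle replicate 2 gave 2. Without the 0.1 mg/kg/day array, which belongs to another group, it was 24. Without exercise, the difference between the muscles had a median of 0.78 with 0 genes past the threshold (limma, 0.0092% of all probe sets called). An unadjusted p below 0.05 was found for 3 of the genes, against 3929 of the 21729 probe sets. When replicate 3 of the high-dose gastrocnemius group was left out, 8 genes passed the threshold. How many of all probe sets passed with single arrays left out was not counted.

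Vehicle rats gave no detectable difference between the muscles in this family. Soleus over gastrocnemius had a median of -0.19 without exercise and -0.11 with it. In either, 0 of the 42 genes passed (limma, 7.02% and 13.2% of all probe sets called). An unadjusted p below 0.05 was found for 1 and 2 of the 42, against 4783 and 6049 of the 21729 probe sets. About 4 µg of RNA was labelled for gastrocnemius and 3 µg for soleus, which cannot be told apart from the muscle. Fibre genes differed in the same fit, with 7 of 12 fast-fibre genes lower and 1 of 8 slow-fibre genes higher in unexercised soleus. The core subunits lay between -0.40 for Ndufs3 and 0.06 for Ndufs1 in unexercised rats, with 95% confidence intervals of -1.32 to 0.51 and -0.82 to 0.93, and Ndufa4 and Ndufa4l2 were at -0.31 and 0.10.

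The share of genes whose soleus arrays all lay below the gastrocnemius arrays was near that of all probe sets. Without exercise 4 of the 42 genes did so (Ndufb1, Ndufb2, Ndufa3 and Ndufb4), compared with 8.92% of all probe sets, and with exercise 3 did (Ndufb1, Ndufb2 and Ndufa3), compared with 10.6%, while the groups overlapped for Ndufb4. Ndufb2, a membrane arm subunit, read 15250.2, 12665.3, 8518.3 and 12823.7 in unexercised soleus, against 22336.9, 16486.6, 17421.6 and 17547.5 in unexercised gastrocnemius (log2 fold change -0.60 ± 0.30; limma, adjusted p = 0.226). In exercised rats it read 12048.4, 17200.3, 12470.5 and 10730.4 in soleus, against 18283.8, 20821.4, 18659.6 and 17336.4 in gastrocnemius. Ndufa3, another membrane arm subunit, was at -0.62 ± 0.27 there, with the lowest adjusted p of the comparison, 0.126 (limma).

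Ndufv3 was read by 2 probe sets that did not move together. The brighter one is the one described so far, and it did not separate the muscles, with a log2 difference between soleus and gastrocnemius of -0.37 ± 0.41 in unexercised vehicle rats (limma, adjusted p = 0.630). The dimmer one read 314.1, 308.6, 269.5 and 233.1 in exercised high-dose gastrocnemius, against 268.8, 466.9, 104.5 and 272.0 with vehicle, a change of 0.17 ± 0.59 (limma, adjusted p = 0.835). It read 892.4, 472.3, 656.5 and 590.0 in unexercised vehicle soleus, against 431.6, 207.0, 179.8 and 328.6 in gastrocnemius. Its log2 difference was 1.20 ± 0.50 there (limma, adjusted p = 0.143) and 1.41 ± 0.50 in exercised rats (limma, adjusted p = 0.0543), with all soleus arrays above all gastrocnemius arrays in both. Such a separation upwards was seen for 7.75% and 11.4% of all probe sets.

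In exercised soleus, the same dim probe set had all 4 high-dose arrays below all vehicle arrays, at 457.7, 497.0, 383.8 and 366.8 against 758.9, 733.9, 507.6 and 743.0, although its change of -0.66 ± 0.20 did not pass the test (limma, adjusted p = 0.813). Of the 42 genes 1, Ndufb5, had its treated soleus arrays all below vehicle in the same way, as did 1.67% of all probe sets. Which transcripts of Ndufv3 either probe set reads was not examined. Second probe sets of Ndufa7, Ndufa9 and Ndufaf7 were also dim. In exercised gastrocnemius at the high dose they were at -0.64, -0.36 and -0.17, of which that of Ndufa7 passed the threshold (limma, adjusted p = 0.0369).

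**Figure D5:**
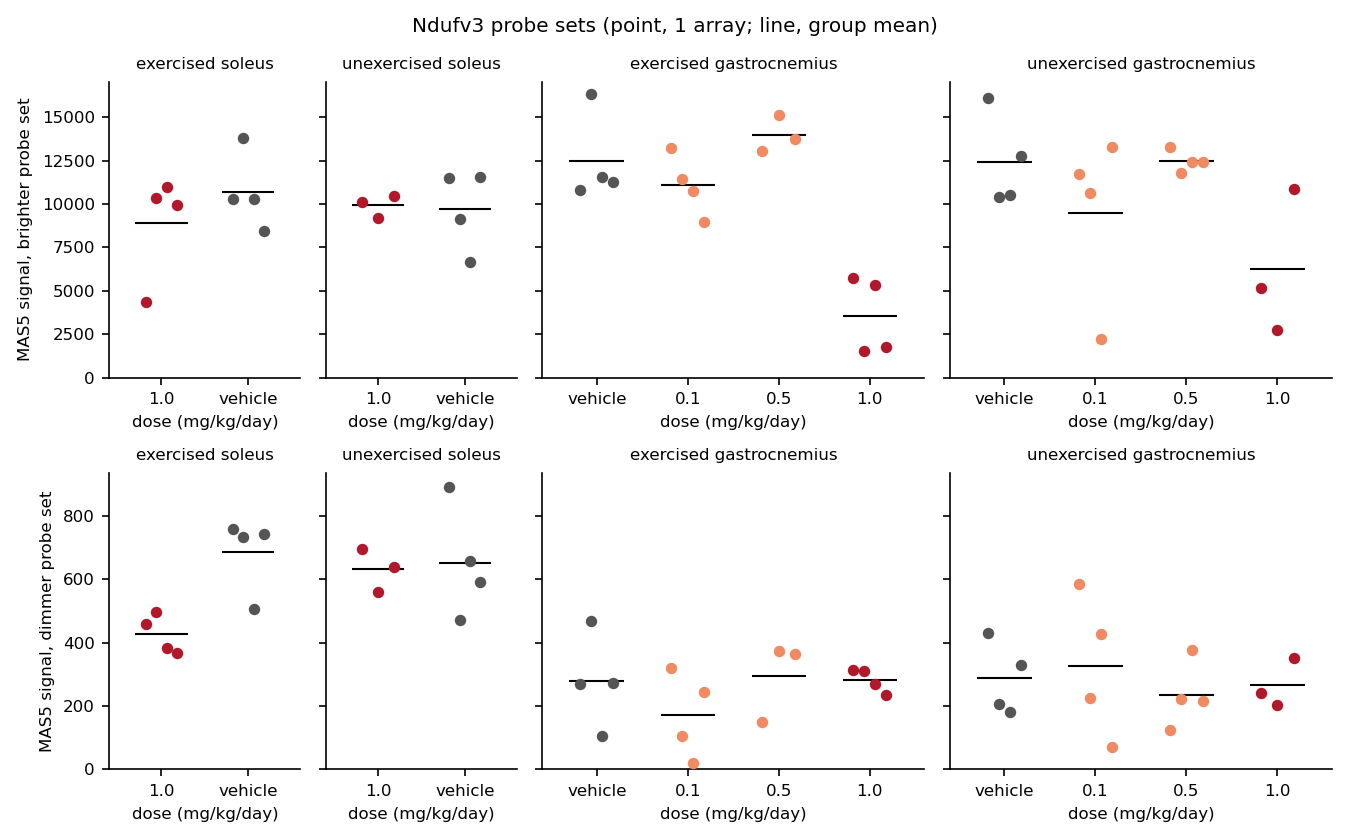
MAS5 signal (y axes, linear, each row with its own scale) of the 2 Ndufv3 probe sets in every array by dose in mg/kg/day (x axis), with a line at each group mean. In exercised high-dose gastrocnemius the brighter one lies at 1515.0 to 5745.2, below all vehicle arrays, while the dimmer one overlaps vehicle there and is higher in every vehicle soleus array than in any vehicle gastrocnemius array of the same exercise state.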

How the data were processed

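Total RNA of rat gastrocnemius and soleus was labelled and hybridised to 45 single-channel Affymetrix arrays, 1 per sample, which the labels call biological replicates. The deposited values are linear intensities from MAS5 (submitters' processing notes), and no version or scaling target was found in the sources. Each array's mean after trimming 2% at either end was 600.2 to 600.31. The 57 control probe sets were left out. Of the 31042 others, 20826 had 1 symbol in the platform annotation, 436 several and 9780 none. Soleus titles that mention no exercise were taken as unexercised. The highest correlation between 2 arrays was 0.97. The number of arrays limits the precision.

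Values were analysed as log2(value + 12.4), the offset being the 10th percentile of all values, which makes changes of dim probe sets smaller. The dimmest 30% of probe sets by mean (under 6.03 after this transformation) were dropped, leaving 21729 to test. Group means were fitted with limma 3.58.1 (R 4.3.3; lmFit, contrasts.fit, eBayes with a trended prior) on the 30 gastrocnemius arrays, the 15 soleus arrays or, between muscles and for interactions of muscle, all 45, in 17 comparisons. P-values were Benjamini-Hochberg adjusted over all probe sets tested within a comparison, with a threshold of 0.05, and SEs follow ± beside fold changes. The brightest tested probe set stands for each gene. The fit was tested on simulated data with known changes. Promoter motifs were searched on both strands and a match to either strand counted once, and overlapping matches to different motifs were each counted.

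The text names, in each main comparison, the core subunits, the 8 accessory subunits and 4 assembly factors with the largest changes past the threshold, any gene past it against the majority, and Ndufa4 and Ndufa4l2, and of each other list the 2 largest changes in each direction that passed. Genes named for groups that do not overlap, for the smallest p or for a second probe set were chosen after their values were seen. The members and lists were chosen with earlier results of these data known. Alternatives were another offset, filter, normalization, prior or set of arrays, means over a gene's probe sets, replicate number as a block, and leaving out each array.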

Additional observations from a re-analysis of the deposited data

Results flagged for a closer look

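Arrays that stood far from the other 3 of their group were looked for in 56 sets of 4 values (medians of the family and its classes, and single genes in exercised gastrocnemius), of which chance alone sets apart about 1 in 20, and 9 were found. Many of these rest on the same arrays. Replicate 3 of unexercised gastrocnemius at 0.1 mg/kg/day had an assembly factor median of 9.21 (log2 signal), against 10.50 to 10.59 in the others. Replicate 1 of exercised soleus at 1.0 mg/kg/day had 9.53, against 10.16 to 10.28, and replicate 3 of unexercised vehicle soleus had 9.75, against 10.39 to 10.45. Replicate 2 of exercised vehicle gastrocnemius stood above its group, with a core subunit median of 14.39 against 13.86 to 13.95 and an accessory subunit median of 14.37 against 14.01 to 14.04. Its signals were also high for Ndufs7 (36306.2), Ndufv1 (21387.2), Ndufa5 (20394.6) and Ndufv3 (16324.9). Without this array 39 Nduf genes still fell in exercised gastrocnemius at the high dose, with a median of -1.24. The share of all probe sets that fell without it was not counted.

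The response of exercised rats to the high dose differed between soleus and gastrocnemius by the interaction test for 11 of the 42 genes. All 11 differences were positive, where 11.6% of all probe sets passed in that direction and 25.3% in either. The count ran from 0 to 27 with 1 array left out, and the share of all probe sets passing was not counted there. It was 0 without gastrocnemius high-dose replicate 2 or replicate 4. The soleus change minus the gastrocnemius change was 1.77 for Ndufs3, 1.70 for Ndufv3, 1.54 for Ndufs7, 1.24 for Ndufs6, 1.19 for Ndufaf8, 1.18 for Ndufb4, 1.14 for Ndufb2, 1.11 for Ndufb3, 1.05 for Ndufa3, 1.02 for Ndufa1 and 1.01 for Ndufa7 on the log2 scale.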

How the results depend on the processing

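The 39 genes lowered in exercised gastrocnemius at the high dose numbered 38 or 39 under all 14 other settings and 38 to 39 with 1 array left out, with medians of -1.62 (median centring) to -1.10 (quantile normalization); Ndufa9 alone of the genes named there lost its call, when the mean over its probe sets was taken. Against 0.5 mg/kg/day the count was 39 in all 14 settings and 38 to 39 with an array left out. In unexercised gastrocnemius the 0 genes of the high dose against vehicle became 1 with all 45 arrays in the fit, 9 without the 3 arrays of lowest Gapdh 5′ to 3′ ratio and 9 without the 0.1 mg/kg/day array of another group, an alternative chosen after seeing the data, and 0 to 26 with 1 array left out. Against 0.5 mg/kg/day the corresponding counts were 5, 25 and 25, and 0 to 29. Comparisons within gastrocnemius used gastrocnemius arrays only, except in the setting with all 45. The 0.1 mg/kg/day array is the only gastrocnemius one of the 3 low-ratio arrays. Both exclusions therefore left out the same array there, and their equal counts are the same fit. Soleus over gastrocnemius in exercised vehicle rats gave 3 with only those groups in the fit, 2 without the 3 low-ratio arrays and 1 without the 0.1 mg/kg/day array, and 0 with any of its own arrays left out. The 11 genes of the muscle difference in exercised rats became 6 with no filter, 38 without the 3 low-ratio arrays and 24 without the 0.1 mg/kg/day array, and 0 to 27 with 1 array left out; the difference without exercise gave 0 to 8. Leaving out the 0.1 mg/kg/day array does not alter the group means of these comparisons, so their fold changes stay the same. Only the shared estimate of the spread differs in that setting. The cause of the other shifts was not tested, and the share of all probe sets called under each setting was not counted. All other counts were 0 throughout. No named gene past the threshold changed sign, but family medians near 0 did, with 1 array left out: high dose in unexercised soleus (-0.13 to 0.15), exercise in vehicle gastrocnemius (-0.04 to 0.15) and soleus over gastrocnemius in exercised vehicle rats (-0.24 to 0.01); the first was also at -0.13 without the 3 low-ratio arrays. Without being past the threshold, Ndufa4 (high dose in exercised soleus), Ndufa4l2 (high dose in unexercised gastrocnemius, and soleus over gastrocnemius in unexercised vehicle rats) and Ndufs1 and Ndufs8 (the same muscle comparison) also changed sign in some settings. Same-numbered arrays within a muscle did not deviate together (mean correlation 0.007, against -0.002 for other numbers), so the numbers were not taken as pairs. Those values span groups of a single muscle, so they cannot show whether soleus and gastrocnemius arrays share rats. Between the muscles, same-numbered vehicle arrays had mean correlations of 0.061 with exercise (0.035 to 0.089) and -0.006 without it (-0.145 to 0.125). The fits took all arrays as independent. With the replicate number as a block the counts were 39, 39 and 9 in place of 39, 39 and 11, and 0 elsewhere. Array number, 3 or 4 per group, limits what can be detected.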
